A study of Homo sapiens with 24 samples.

Results

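RN7SK, RPPH1 and RMRP encode 3 abundant structured RNAs that RNA polymerase III (Pol III) makes from type 3 promoters, in which the control elements lie upstream of the transcribed sequence. The small RNA table held 175946 annotated intervals, and 20723 of these were not annotated as long non-coding RNA (lncRNA) alone. The 3 genes were the intervals among those 20723 whose first name is RN7SK, RPPH1 or RMRP, and they were matched by row number to the windows of the ATAC-seq table. All 3 were covered by both assays and passed the filter on low counts in both.

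The cells were HEK293, an established human embryonic kidney line, labelled wild type in all libraries. They overexpressed eGFP (the control, GFP below) or 1 of the nuclear lamins, the filament proteins under the inner nuclear membrane: lamin A (LMNA), lamin B1 (LMNB1) or lamin B2 (LMNB2). Each of the 4 groups had 3 small RNA libraries, made from RNA enriched for small species, and 3 ATAC-seq libraries, which measure how accessible chromatin is to a transposase. The vector, the promoter driving the transgene, the time after its delivery and the origin of the replicates are not given in the sources used here, so p-values measure only the spread between these samples, which may be technical. The tables hold non-coding intervals, so lamin mRNA and the protein-coding markers of the line were not analysed here.

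RN7SK encodes the 7SK RNA, which with HEXIM and LARP7 proteins holds the elongation kinase P-TEFb in an inactive complex and so restrains RNA polymerase II elongation. RPPH1 encodes the catalytic RNA of nuclear RNase P, which removes the 5′ leader of precursor tRNA and also trims the 3′ ends of MALAT1 and NEAT1. RMRP encodes the related RNA of RNase MRP, which cuts the precursor of ribosomal RNA ahead of 5.8S rRNA. The promoters of this class carry a distal element, often an octamer bound by OCT1, sometimes with an SPH element bound by ZNF143, and a proximal element and TATA box read by SNAPc and TFIIIB.

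In the deposited tables RN7SK spans chr6:52995595-52995973 on the plus strand, RPPH1 chr14:20343049-20343432 on the minus strand and RMRP chr9:35657728-35658042 on the minus strand (GRCh38, per the submitters' processing notes), with starts as the tables give them, which do not say whether they count from 0 or 1. RefSeq (GRCh38.p14) places non-coding RNA genes of 332, 341 and 270 bases inside these intervals, and the intervals extend 21 to 25 bases past them on each side. RN7SK, RPPH1 and RMRP have no promoter entry of their own in the RefSeq promoter table used. Each has a protein-coding neighbour that starts close by in the opposite direction: GSTA4 336 bp from the start of RN7SK, PARP2 224 bp from RPPH1 and CCDC107 273 bp from RMRP. The 250 bases upstream of those neighbours therefore hold much of the sequence between each pair of starts, and they are shown because 65, 173 and 126 of their bases lie inside the ATAC windows of RN7SK, RPPH1 and RMRP. Each is printed 5′ to 3′ on the strand of the neighbour, which is opposite to that of the RNA gene, and capitals mark the letters searched for.
GSTA4, beside RN7SK, chr6:52995285-52995534, minus strand: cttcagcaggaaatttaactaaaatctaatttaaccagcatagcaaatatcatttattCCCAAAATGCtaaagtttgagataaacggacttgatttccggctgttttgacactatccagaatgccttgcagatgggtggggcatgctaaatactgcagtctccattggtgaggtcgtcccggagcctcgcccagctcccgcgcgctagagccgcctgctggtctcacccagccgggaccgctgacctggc
PARP2, beside RPPH1, chr14:20343385-20343634, plus strand: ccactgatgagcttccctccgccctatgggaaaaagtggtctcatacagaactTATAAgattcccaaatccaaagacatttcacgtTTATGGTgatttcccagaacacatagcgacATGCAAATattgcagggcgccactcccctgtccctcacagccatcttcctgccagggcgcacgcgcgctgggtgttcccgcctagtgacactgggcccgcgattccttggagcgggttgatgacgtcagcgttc
CCDC107, beside RMRP, chr9:35658042-35658291, plus strand: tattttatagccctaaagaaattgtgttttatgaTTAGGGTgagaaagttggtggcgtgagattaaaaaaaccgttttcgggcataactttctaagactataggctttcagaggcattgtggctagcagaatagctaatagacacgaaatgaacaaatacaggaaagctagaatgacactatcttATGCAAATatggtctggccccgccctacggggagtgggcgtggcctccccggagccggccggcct

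Counted from the RNA gene's start, the PARP2 sequence runs from 223 bases before the start of RPPH1 to 26 bases beyond it, and it held 3 of the 4 letter patterns. The octamer ATTTGCAT lay 97 to 90 bases before the start, ACCNTNA, a core of the proximal element, 66 to 60 bases before it, and TTATA 31 to 27 bases before it, all on the RPPH1 strand. The CCDC107 sequence covers bases 272 to 23 before the start of RMRP. It held ATTTGCAT 215 to 208 bases and ACCNTNA 63 to 57 bases before that start, on the RMRP strand. The GSTA4 sequence covers only bases 335 to 86 before RN7SK, so the proximal region is outside it, and it held the core of the SPH element 153 to 144 bases before the RN7SK start on the other strand. Among 35116 RefSeq promoters, 1.63% held ATTTGCAT and 1.50% the SPH core on either strand in the 250 bases before the start. TTATA starting 35 to 20 bases before the start occurred in 1.57%, and ACCNTNA starting 75 to 40 bases before it in 1.85%, both on the gene strand. These are matches of letters and not measured binding sites.

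Small RNA libraries held 132507051 to 195074742 counts over all intervals, and ATAC libraries 156043245 to 290158229 over all windows. lncRNA intervals took 77.9% to 86.5% of small RNA counts. RN7SK, RPPH1 and RMRP together took 105 counts-per-million (CPM) of all counts in GFP replicate 1 and 164 to 216 in the other 11 libraries. GFP replicate 1 also had the lowest scaling factor of the trimmed mean of M-values (TMM) method, 0.631, and GFP replicate 3 the highest, 1.31, against 0.878 to 1.16 in the other 10. The GFP libraries thus differed more in these factors than those of any lamin group. The share of mitochondrial ATAC counts was 39.9% to 47.5% for GFP, 39.4% to 44.1% for LMNA, 32.8% to 34.1% for LMNB1 and 24.5% to 30.7% for LMNB2, and its part in the ATAC results was not tested.

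Reads of RN7SK could be shared with other loci, since 51 other intervals carry a 7SK name. The highest mean count of such a copy was 60.0 per library, against 19449 for RN7SK, and no interval overlapped RN7SK. RPPH1 lies inside 2 lncRNA intervals, lnc-CCNB1IP1-1 and AL355075.4, whose counts spanned the same 3243 to 5209 per library as those of RPPH1. RMRP, on the minus strand, lies inside 2 very wide plus-strand intervals named as signal recognition particle RNA, with 3298 to 9258 counts per library. The narrower of these held 3298 to 9019 counts, where RMRP held 3277 to 8998. Reads of RMRP thus appear to be counted in intervals of either strand. No copy of RPPH1 or RMRP is named in the table.

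RN7SK was the most abundant of the 3 RNAs per unit length. Over the 12 small RNA libraries its mean level was 331 CPM per kilobase of interval (CPM per kb, with TMM-scaled library sizes), against 119 for RMRP and 70.7 for RPPH1. RN7SK thus stood 2.79-fold above RMRP and 4.69-fold above RPPH1, and RMRP 1.68-fold above RPPH1. Among the 3329 tested intervals that were not lncRNA alone, the 3 RNAs ranked 253 (RN7SK), 448 (RMRP) and 555 (RPPH1) per kb. These RNAs are longer than most of the species for which such libraries are enriched, and whether the counts come from whole molecules or fragments cannot be told from the tables.

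The RN7SK level did not separate any lamin from GFP. In bulk libraries, fewer cells carrying an RNA and less of it per cell cannot be told apart. It was 110.9, 160.0 and 82.8 CPM in the GFP replicates, 98.2, 127.5 and 122.7 with LMNA, 141.9, 133.6 and 148.8 with LMNB1, and 116.0, 125.2 and 135.1 with LMNB2. The GFP libraries spanned a 1.93-fold range that contained all 9 lamin libraries. Group means were 118 ± 39.1 CPM for GFP, 116 ± 15.7 for LMNA, 141 ± 7.61 for LMNB1 and 125 ± 9.56 for LMNB2 (SD, n = 3 each). In the order LMNB1, LMNB2, GFP, LMNA, each pair of neighbouring groups overlapped. Only LMNA and LMNB1 did not overlap among the 6 pairs of groups, as was the case for 13.6% of all tested intervals.

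RPPH1 was the steadiest of the 3 and lay higher in all LMNA libraries than in any GFP library. Its level was 27.9, 23.8 and 21.9 CPM in the GFP libraries, 32.4, 28.3 and 28.8 with LMNA, 27.8, 27.1 and 24.1 with LMNB1, and 30.2, 25.8 and 26.8 with LMNB2. The means were 24.5 ± 3.03 CPM for GFP, 29.8 ± 2.25 for LMNA, 26.3 ± 2.00 for LMNB1 and 27.6 ± 2.30 for LMNB2 (SD, n = 3 each). The separation of LMNA from GFP was by a gap between 27.9 and 28.3 CPM. Groups that did not overlap made up 9.5% of all 33893 tested intervals in that comparison, so a gap of this kind in 1 of 3 genes is not a result about RPPH1. LMNA and LMNB1 did not overlap for RPPH1 either, as was the case for 13.6% of all tested intervals. Neighbouring groups in the order LMNA, LMNB2, LMNB1, GFP all overlapped.

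RMRP varied most in GFP and least in LMNB2. It reached 28.2, 27.8 and 50.7 CPM in the GFP replicates, 48.4, 38.6 and 36.1 with LMNA, 33.8, 31.8 and 34.7 with LMNB1, and 39.3, 39.8 and 39.0 with LMNB2. The third GFP library was the highest of all 12 and the other two GFP libraries were the lowest. The means were 35.5 ± 13.1 CPM for GFP, 41.0 ± 6.48 for LMNA, 33.4 ± 1.50 for LMNB1 and 39.3 ± 0.404 for LMNB2 (SD, n = 3 each). LMNB1 lay below both LMNA and LMNB2 without overlap, as 13.6% and 29.6% of all tested intervals did not overlap between those groups, while neighbouring groups in the order LMNA, LMNB2, GFP, LMNB1 overlapped.

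**Figure D1:**
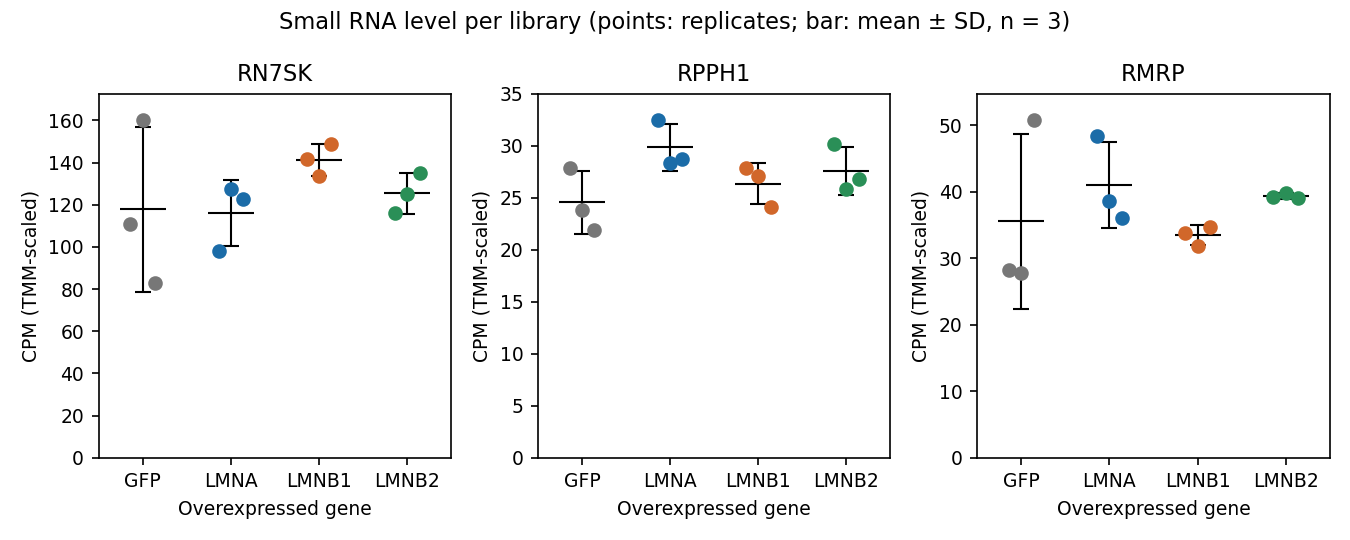
TMM-scaled CPM (vertical axis, from 0) of RN7SK, RPPH1 and RMRP in the 12 small RNA libraries by overexpressed gene, with points for replicates and bars for mean ± SD (n = 3). GFP libraries span 82.8 to 160.0 CPM for RN7SK and 27.8 to 50.7 CPM for RMRP, and this range holds every lamin library of both genes.

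Fitted across all intervals, none of the 3 RNAs passed an adjusted p of 0.05 in any comparison with GFP (edgeR's quasi-likelihood test, adjusted by Benjamini-Hochberg over 33893 intervals). The 3 comparisons share the same GFP libraries and are not independent. For LMNA the test called 0 intervals (0%), with 1850 at an unadjusted p under 0.05 and 24 called by DESeq2. For LMNB1 it called 13 intervals (0.0384%), all higher, and for LMNB2 901 intervals (2.66%), 646 of them higher (1.91%) and 255 lower (0.752%). For LMNB2 as for the other lamins, 0 of 3 genes were among the calls. The counts themselves rested on single libraries: without GFP replicate 3 they were 304, 36 and 2101 for LMNA, LMNB1 and LMNB2, and without any 1 LMNB2 replicate the LMNB2 count was 51 to 170.

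The log2 fold changes of RN7SK were -0.02 ± 0.25 (SE, here and below) for LMNA, with a 95% interval of -0.55 to 0.50, then 0.26 ± 0.25 for LMNB1 (-0.26 to 0.79) and 0.09 ± 0.25 for LMNB2 (-0.44 to 0.61). Those of RPPH1 were 0.28 ± 0.20 for LMNA (-0.14 to 0.70), 0.10 ± 0.20 for LMNB1 (-0.32 to 0.52) and 0.17 ± 0.20 for LMNB2 (-0.25 to 0.59). Those of RMRP were 0.21 ± 0.24 for LMNA (-0.31 to 0.72), -0.09 ± 0.24 for LMNB1 (-0.60 to 0.43) and 0.15 ± 0.24 for LMNB2 (-0.37 to 0.66). The adjusted p ranged from 0.680, for RPPH1 with LMNB2, to 1.00 (edgeR's quasi-likelihood test, Benjamini-Hochberg). The median over all intervals was -0.05, -0.05 and -0.04 on the log2 scale for LMNA, LMNB1 and LMNB2. The upper bounds of the 95% intervals lay between 0.43 and 0.79, and the lower bounds between -0.60 and -0.14. These replicates thus leave room for rises or falls of those sizes in the 3 RNAs.

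Several of these estimates turned on single GFP libraries. Without GFP replicate 3 the log2 fold changes of RMRP became 0.62 for LMNA, 0.31 for LMNB1 and 0.54 for LMNB2, while edgeR's quasi-likelihood test gave adjusted p of 0.115, 0.590 and 0.0817. Without GFP replicate 1 or replicate 2 the RMRP estimate for LMNB2 was -0.01. Without GFP replicate 2 those of RN7SK became 0.28, 0.55 and 0.37 for LMNA, LMNB1 and LMNB2. No gene passed the threshold under any of these omissions.

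The joint test of the 3 lamins against each other called 654 intervals (1.93%) and again none of the 3 genes. The adjusted p was 0.764 for RN7SK, 0.836 for RPPH1 and 0.728 for RMRP (edgeR's quasi-likelihood test, Benjamini-Hochberg). Over the 3 genes, 13 of 18 pairs of groups overlapped in small RNA level. LMNA and LMNB1 did not overlap for any of the 3, nor did they for 13.6% of all intervals. LMNB1 and LMNB2 did not overlap for RMRP, nor for 29.6% of all intervals. LMNA and GFP did not overlap for RPPH1, nor for 9.5% of all intervals. The 3 genes were measured in the same libraries, so these pairs are not independent. LMNA and LMNB2, which overlapped for all 3, did not for 28.1% of all intervals. With LMNB1 and LMNB2 all 3 genes overlapped GFP, where 10.1% and 22.3% of all intervals did not.

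Within a library, the ratio of 2 RNAs does not depend on the scaling. Ratios here are of CPM per kb of interval. RN7SK over RMRP ran from 1.36 to 4.79 for GFP and 1.69 to 2.82 for LMNA. It ran from 3.49 to 3.56 for LMNB1 and 2.45 to 2.88 for LMNB2. On the log2 scale the SD of this ratio was 0.93 in GFP and 0.02 in LMNB1. RMRP over RPPH1 ran from 1.23 to 2.82 in GFP and from 1.43 to 1.88 over the 9 lamin libraries. The wide GFP range came from RN7SK and RMRP moving in opposite directions there: GFP replicate 3 had the lowest RN7SK and the highest RMRP level of the 12 libraries, and GFP replicate 2 had the highest RN7SK and the lowest RMRP level. The difference in spread between groups was not tested. The SD of log2 CPM within groups was 0.27 for RN7SK, 0.13 for RPPH1 and 0.27 for RMRP, beside a median of 0.28 over the 4068 tested intervals of at least 1 CPM.

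**Figure D2:**
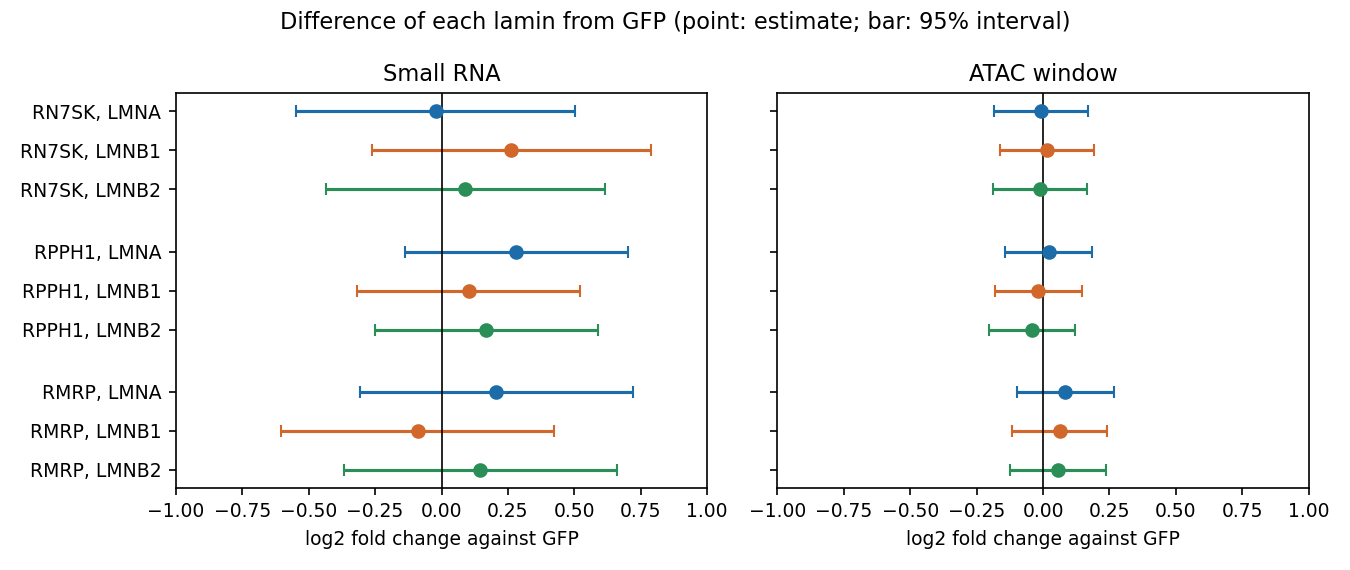
Log2 fold change of each lamin against GFP (horizontal axis) for RN7SK, RPPH1 and RMRP in small RNA (left) and in the ATAC window (right), with points for edgeR estimates and bars for 95% intervals. Every interval includes 0, and those of ATAC lie within -0.20 to 0.27.

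Chromatin over the 3 genes was highly accessible in every group. Their windows also hold bases just upstream of GSTA4, PARP2 and CCDC107, so accessibility of those promoters cannot be told apart from that of the RNA genes. The ATAC windows reach 125 bp past the intervals on each side, chr6:52995470-52996098 for RN7SK, chr14:20342924-20343557 for RPPH1 and chr9:35657603-35658167 for RMRP. Their mean densities over 12 libraries were 14.8, 17.6 and 14.9 ATAC CPM per kb, so the highest was 1.19-fold the lowest, while their small RNA levels differed 4.69-fold. The 3 windows were denser than 98.2%, 98.6% and 98.2% of the 12320 tested windows of intervals not annotated as lncRNA alone, and than 99.8% of all 163786 tested windows. The 3 windows are 564 to 633 bp long, and the windows they are ranked against differ widely in length. Density per kb can depend on that length, and the ranks were not adjusted for it.

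The window of RN7SK held 10.6, 8.88 and 8.42 CPM in the GFP replicates, 9.87, 9.64 and 8.23 with LMNA, 10.0, 9.07 and 9.04 with LMNB1, and 9.55, 8.04 and 10.1 with LMNB2. That of RPPH1 held 12.6, 11.0 and 10.0 CPM in the GFP replicates, 11.5, 11.6 and 10.9 with LMNA, 11.8, 11.7 and 9.66 with LMNB1, and 11.1, 9.93 and 11.6 with LMNB2. That of RMRP held 8.72, 8.37 and 7.26 CPM in the GFP replicates, 9.16, 9.10 and 7.57 with LMNA, 8.79, 8.73 and 7.87 with LMNB1, and 8.64, 7.26 and 9.40 with LMNB2. All 18 pairs of groups overlapped. Of all windows, 9.55%, 8.46% and 10.3% did not overlap GFP with LMNA, LMNB1 and LMNB2. Between lamins the shares were 11% for LMNA and LMNB1, 16.5% for LMNA and LMNB2 and 11.4% for LMNB1 and LMNB2. Each lamin mean differed from the GFP mean of its gene by less than the GFP SD. GFP means were 9.30 ± 1.14 for RN7SK, 11.2 ± 1.32 for RPPH1 and 8.11 ± 0.762 for RMRP (CPM, SD, n = 3). Behind these values stood 1381 to 3480 ATAC counts per window and library.

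**Figure D3:**
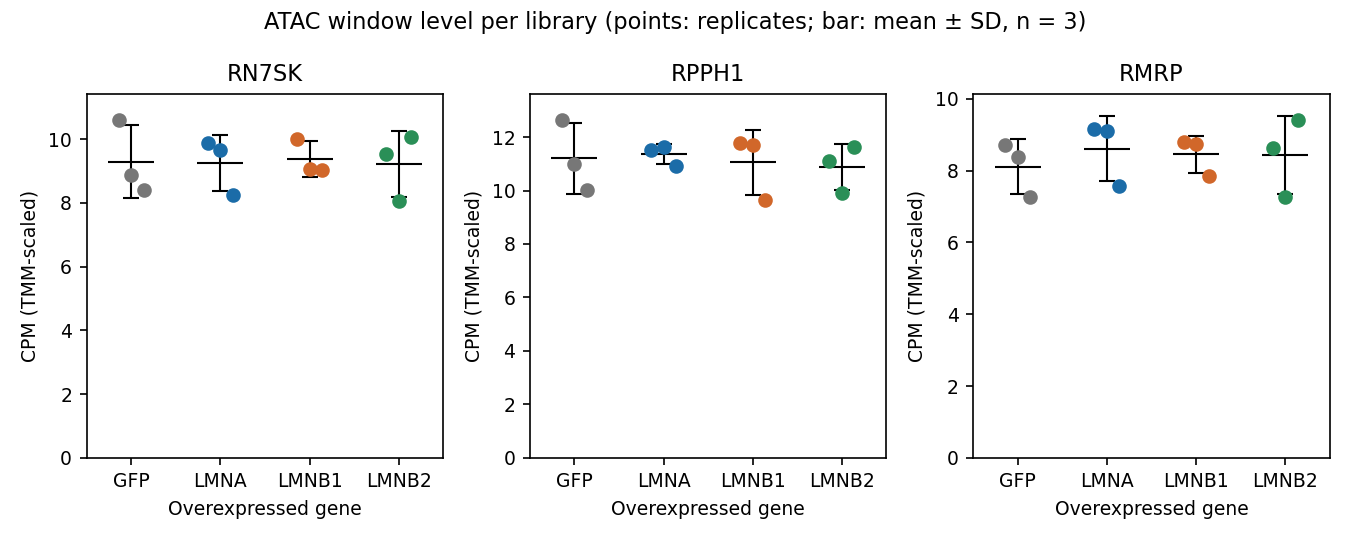
TMM-scaled CPM (vertical axis, from 0) in the ATAC windows of RN7SK, RPPH1 and RMRP in the 12 ATAC libraries by overexpressed gene, with points for replicates and bars for mean ± SD (n = 3). The groups overlap for each gene, with GFP means of 9.30, 11.2 and 8.11 CPM.

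No window of the 3 genes passed the test, which called 1 window for LMNA (0.000611%), 5 for LMNB1 (0.00305%) and 4 for LMNB2 (0.00244%) over all features. The log2 fold changes of RN7SK were -0.01, 0.01 and -0.01 for LMNA, LMNB1 and LMNB2 (SE 0.09 each). Those of RPPH1 were 0.02, -0.02 and -0.04 (SE 0.08 each), and those of RMRP 0.08, 0.06 and 0.06 (SE 0.09 each). The adjusted p ranged from 0.963 to 0.999 (edgeR's quasi-likelihood test, Benjamini-Hochberg). The 95% intervals ran from -0.20 to 0.27 on the log2 scale at their widest, narrower than those of the RNA levels. In the joint test of the lamins, which called 150 windows (0.0916%), the adjusted p was 0.999, 0.991 and 0.999 for RN7SK, RPPH1 and RMRP (edgeR's quasi-likelihood test, Benjamini-Hochberg). The SD of log2 CPM within groups was 0.15, 0.13 and 0.15, beside a median of 0.11 over 77956 windows of at least 1 CPM.

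The density around the window differed between the 3 genes. The flanks of 500, 5000 and 50000 bp begin 350 bp outside the window. For RN7SK the upstream 500 bp flank held 4.73 CPM per kb and the downstream one 1.64, and the upstream flank lies inside GSTA4. RMRP showed the steepest contrast, with 7.10 CPM per kb upstream, inside CCDC107, and 0.523 downstream. RPPH1 had the opposite order, with 0.603 CPM per kb upstream, inside PARP2, and 1.55 downstream. The RPPH1 window was thus 29.1-fold denser than its upstream 500 bp flank, and the RMRP window 2.10-fold denser than its own. In the 5000 bp flanks densities were 0.136 to 1.02 CPM per kb, and in the 50000 bp flanks 0.0709 to 0.350. Density was lower in each larger flank except downstream of RMRP, where the 50000 bp flank, at 0.243 CPM per kb, was denser than the 5000 bp flank.

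Of 54 comparisons of a flank between a lamin and GFP, 6 did not overlap: 0 of 18 for LMNA, 3 of 18 for LMNB1 and 3 of 18 for LMNB2. Over all flanks with a mean of at least 10 counts the shares were 9.57%, 9.18% and 10.9%. Of the 6, 5 were flanks of RPPH1, all lower in the lamin group. Its upstream 500 bp flank held 0.749 ± 0.101 CPM per kb in GFP, 0.470 ± 0.0537 in LMNB1 and 0.601 ± 0.0571 in LMNB2 (SD, n = 3), log2 differences of -0.67 and -0.32, from 50 to 91 counts per library. Its downstream 500 bp flank held 1.68 ± 0.0317 in GFP, 1.39 ± 0.175 in LMNB1 and 1.44 ± 0.0504 in LMNB2. The other one, the downstream 5000 bp flank of RMRP, was higher in LMNB2, 0.220 ± 0.0112 against 0.186 ± 0.0217 CPM per kb in GFP. Flank differences were not tested one by one, and the flanks of 1 gene lie beside each other.

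Set against its own 5000 bp flanks, the window of RPPH1 stood highest. The log2 ratio of window to flank density in GFP was 4.80 ± 0.20 for RN7SK, 6.41 ± 0.16 for RPPH1 and 4.55 ± 0.17 for RMRP (SD, n = 3). All 9 lamin means lay above the GFP mean of their gene, by 0.04 to 0.19. None of these differences passed an exact 2-sided permutation test, with p from 0.2 to 1.0 and adjusted p from 0.9 to 1.0 over the 9 comparisons. A comparison of 3 libraries with 3 cannot give a p below 0.1, so this test could not have reached 0.05. The 9 comparisons share the 3 GFP libraries of each gene.

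**Figure D4:**
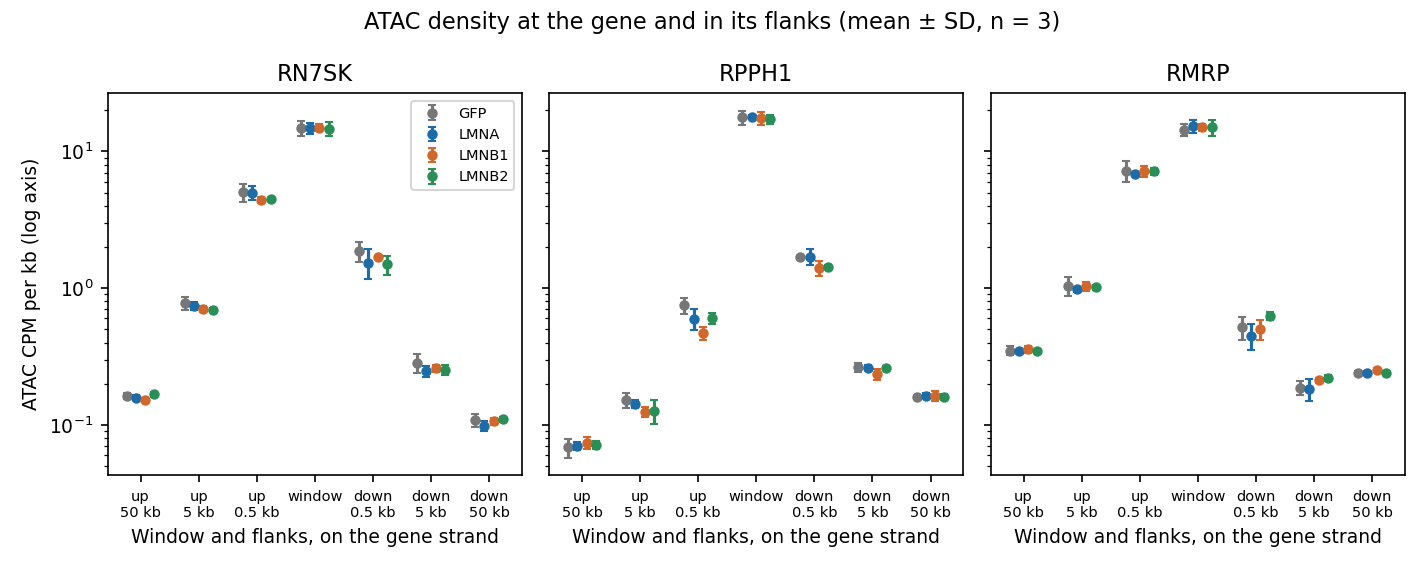
ATAC density in CPM per kb (log axis) in the window of RN7SK, RPPH1 and RMRP and in flanks of 0.5, 5 and 50 kb upstream and downstream on the gene strand, as mean ± SD of 3 libraries per group. RN7SK and RMRP are denser upstream (4.73 and 7.10 CPM per kb in the 0.5 kb flank) than downstream (1.64 and 0.523), and RPPH1 is denser downstream.

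Other genes with type 3 promoters, the U6, U6atac, Y RNA and selenocysteine tRNA genes, were listed by the first name of their intervals. With the 3 genes this gave 20 intervals. RNU6-9 on chromosome 19 ranked 2 of these in ATAC density, with 14.95 CPM per kb. The 3 genes, whose windows also hold bases of neighbouring promoters, ranked 1 (RPPH1), 3 (RMRP) and 4 (RN7SK). In small RNA they ranked 5, 6 and 7 of 19 tested, behind the Y RNAs, which act in RNA quality control and in binding Ro60. RNY4 reached 6715, RNY5 4124, RNY1 2400 and RNY3 1116 CPM per kb of small RNA, at ATAC densities of 0.908 to 2.43 CPM per kb. RNU6ATAC, a spliceosomal RNA of the minor class, stood at the other end with 0.552 CPM per kb of small RNA and 7.75 of ATAC. Dispersed U6 copies may share reads, so their levels are uncertain. Several listed intervals carry the name RNU6-1. Those on chromosomes 10, 2, 3 and X held 0.101 to 0.213 ATAC CPM per kb, while those on chromosomes 14 and 19 held 2.01 and 2.28. The intervals tRNA-SeC-TCA-2-1 and tRNA-SeC-TCA-3-1 held 0.190 and 0.117. Whether each listed interval is a gene with a type 3 promoter was not tested, so the ranks hold only for this list.

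**Figure D5:**
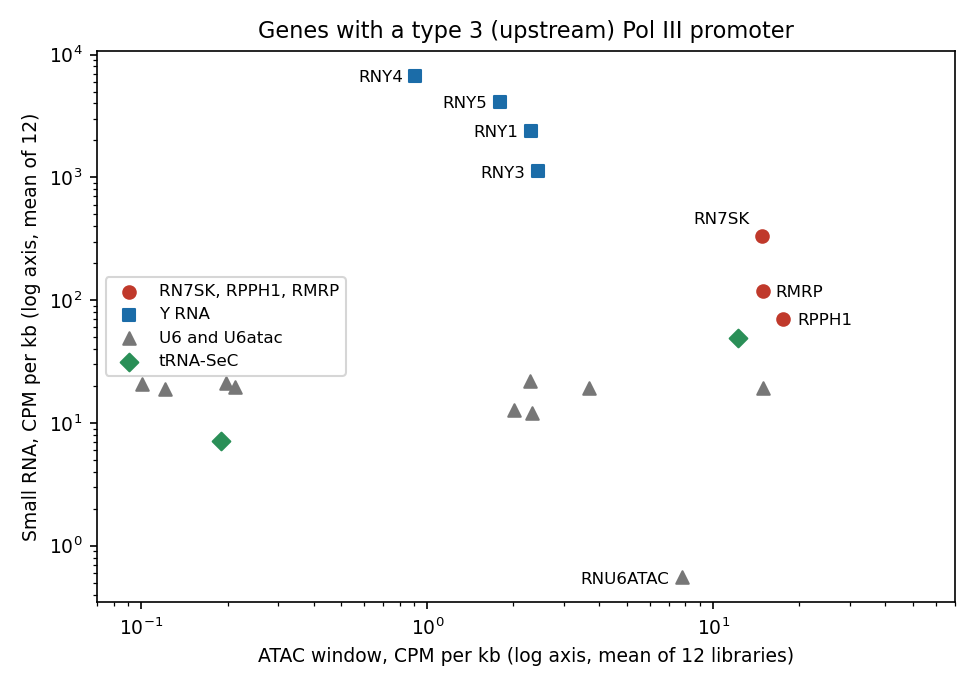
Small RNA level against ATAC density, both in CPM per kb on log axes, as means of 12 libraries. Points are the 19 tested intervals listed under the names of genes with type 3 promoters. RN7SK, RPPH1 and RMRP lie at 14.8 to 17.6 CPM per kb of ATAC and 70.7 to 331 of small RNA, and the Y RNAs at 1116 to 6715 of small RNA.

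None of the other intervals listed under type 3 gene names passed the test in either assay. Of 16 tested in small RNA, 0 were called with LMNA, LMNB1 or LMNB2, with 0, 2 and 2 at an unadjusted p under 0.05, where 5.46%, 5.51% and 19.9% of all intervals were, and their median log2 fold changes were 0.13, -0.28 and -0.11. Of 17 tested in ATAC, 0 were called, with 2, 0 and 3 at an unadjusted p under 0.05, where 5.19%, 4.78% and 5.72% of all windows were, and their medians were 0.04, 0.05 and -0.09. DESeq2 also called 0 of this list in either assay, and 1 passed in small RNA with LMNB2 when lncRNA intervals were left out. Of 25 tested genes with internal promoters other than tRNA (5S rRNA, 7SL, vault RNAs and BC200), 0 were called with any lamin in either assay. Their small RNA medians were 0.42, -0.14 and 0.00, with 2, 0 and 4 at an unadjusted p under 0.05, and DESeq2 called 4 of them with LMNB2 and 0 with the other lamins.

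Substrates of RNase P were listed as nuclear tRNA genes and as MALAT1 and NEAT1. Of 463 tested tRNA genes, 0 were called with LMNA and LMNB1, where DESeq2 called 5 and 2. At an unadjusted p under 0.05 there were 63, 36 and 87 for LMNA, LMNB1 and LMNB2. Of all intervals, 5.46%, 5.51% and 19.9% were under that threshold. With LMNB2 edgeR called 3, all lower, against 0.752% of all intervals called lower. The LMNB2 count was 10, all lower, by DESeq2 and 34 with no filter on low counts, 33 of them lower. The medians were 0.14, 0.07 and -0.20 on the log2 scale for LMNA, LMNB1 and LMNB2. Without GFP replicate 3 the LMNA count became 36 and the LMNB1 count 3, all higher, and the LMNB2 count 14, 12 of them higher. The 3 that edgeR called lower with LMNB2, with all libraries and the filter kept, were tRNA-Ala-AGC-13-1, tRNA-Gly-GCC-6-1 and tRNA-Ile-GAT-1-1. All were under 0.3 CPM in GFP. Of 69 intervals named MALAT1 or NEAT1, 20 rose with LMNB2, against 1.91% of all intervals. All 20 are named NEAT1, the RNA scaffold of paraspeckles, and all but 1, which lies farther downstream, overlap others of the set. With LMNA and LMNB1 0 were called by edgeR and DESeq2, with 1 and 0 at an unadjusted p under 0.05. The longest NEAT1 interval was not among the calls, at 0.66 ± 0.18, and MALAT1 stood at 0.28 ± 0.18. The NEAT1 count fell to 0 under scaling by total counts, in a fit of the compared libraries alone, or without any 1 of the LMNB2 replicates. It was 11 without GFP replicate 2 or without any 1 LMNA or LMNB1 replicate, and 30 by DESeq2.

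Around RNase MRP, 15 intervals of 5.8S rRNA and of the U3, U8 and U13 snoRNAs, which act in processing or modification of rRNA, were tested. With LMNB2 7 rose, all of them U3 genes, against 1.91% of all intervals, and with LMNA and LMNB1 0 were called by edgeR, by DESeq2 or at an unadjusted p under 0.05. The 7 are near-identical or nested U3 intervals and so share reads. SNORD3A went from 46.7 CPM in GFP to 85.2 in LMNB2, or 0.87 ± 0.20 in log2 fold change (adjusted p = 0.0344 by edgeR's quasi-likelihood test). 5.8S rRNA (RNA5-8SN1) stood at 0.36 ± 0.24 and U8 (SNORD118) at -0.09 ± 0.22, and neither passed. The U3 count dropped to 0 under scaling by total counts, in a fit of the compared libraries alone, and without GFP replicate 2, LMNA replicate 1 or 2, or any 1 of the LMNB1 or LMNB2 replicates, and to 4 without LMNA replicate 3, while DESeq2 called 9 with LMNB2. In ATAC, edgeR and DESeq2 called 0 intervals of the RNase P and RNase MRP lists with each lamin. At an unadjusted p under 0.05 there were 18, 11 and 59 of 482 tRNA genes for LMNA, LMNB1 and LMNB2, against 5.19%, 4.78% and 5.72% of all windows. There were 0, 1 and 0 of the RNase MRP list, and 0 of MALAT1 and NEAT1.

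The intervals whose small RNA level followed each RNA most closely over the 12 libraries were taken among 1432 intervals of at least 1 CPM that were not annotated as lncRNA alone, leaving out those that overlap the gene itself. For RN7SK the first was a very wide interval named as signal recognition particle RNA, chrX:41321268-41467127 (Pearson's r = 0.93). Its counts may come from any sequence inside it. The next were a 28S rRNA-like interval on chromosome 19 (0.72) and tRNA-Arg-ACG-1-3 (0.72). For RPPH1 they were SNORA7A (0.87), SNORD32A (0.87) and a U1 copy on chromosome 1 (0.87). For RMRP they were SNORA73B (0.94) and the intervals lnc-LPIN1-5 (0.89) and lnc-SIDT1-2 (0.87), both also annotated as signal recognition particle RNA. The 3 genes thus had different nearest neighbours, and with RMRP's level RN7SK went at r = -0.72. All values describe the same 12 libraries, which share their scaling and include the outlying GFP replicates, and no test was made of them.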

How the data were processed

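The authors deposited raw counts, 1 table per assay, as whole numbers per interval and library whose totals differ between libraries. The build is GRCh38 per the submitters' processing notes. How reads were aligned and counted, how multimapping reads were treated and whether ATAC reads were shifted is not given in the sources used here. Strand use is not stated either, but the small RNA counts around RMRP appear to ignore strand. Reads shared by copies or overlapping intervals cannot be separated. Interval lengths were taken as end minus start.

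All 12 libraries of an assay were fitted in edgeR 4.0.16 (R 4.3.3, limma 3.58.1) after filterByExpr, with TMM scaling and 1 mean per group, by the robust quasi-likelihood test (checked on simulated data). P-values were adjusted over 33893 small RNA intervals or 163786 ATAC windows, called under 0.05. Window to flank ratios used a pseudocount of 0.5 counts and exact permutation tests. Alternatives were DESeq2 1.42.0 (size factors, test), total counts only, no filter or a mean of 10 counts, no lncRNA intervals, only the compared libraries, the replicate block, adjusted p under 0.01 and leaving out each library.

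The 3 genes, the lists and the tests were chosen with earlier results of these data known. Named intervals were the 3 genes, intervals overlapping them, up to 4 of highest mean CPM per list, and the 3 whose log2 CPM correlated best with each gene. The tRNA genes called, RNU6ATAC beside the small RNA levels and the flanks described were picked after their values were seen.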

Additional observations from a re-analysis of the deposited data

How the results depend on the processing

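RN7SK, RPPH1 and RMRP with 3 lamins and 21 alternative settings gave 189 estimates against GFP per assay, and none was called. In 1 setting the main fit was kept at an adjusted p under 0.01, so it could add no call. DESeq2 gave no adjusted p for the 3 genes in ATAC with LMNB1. Of the 189 estimates, 13 in small RNA and 20 in ATAC changed sign. The lowest adjusted p was 0.0817 in small RNA and 0.139 in ATAC (edgeR or DESeq2, Benjamini-Hochberg). Over the 63 joint test results per assay the lowest were 0.172 and 0.816. The counts over all features moved far more. In small RNA, with LMNA, 111 were called with no filter and 24 by DESeq2. With LMNB1 the counts were 127 with no filter, 21 by DESeq2, 1 without lncRNA intervals and 6 with only the compared libraries. With LMNB2 they were 71 at an adjusted p under 0.01, 282 with total counts, 1745 with no filter, 127 without lncRNA intervals and 21 with only the compared libraries, and in the joint test 177, 275, 1667, 79 and 3887 in the same order. Higher against lower calls with LMNB2 were 281 to 1 with total counts and 850 to 895 with no filter, and with LMNB1 45 to 82 with no filter. In ATAC, with LMNA, counts were 184 with total counts, 59 by DESeq2, 60 with the replicate block and 0 with only the compared libraries. With LMNB1 they were 110, 62 (DESeq2), 1 without lncRNA intervals and 19 with only the compared libraries, with LMNB2 99, 116, 0 and 67, and in the joint test 95, 745, 2 and 821, besides 9 at an adjusted p under 0.01 and 553 with the replicate block. The causes were not tested.

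Some estimates changed sign. For RN7SK small RNA with LMNA they were 0.0029 with DESeq2's size factors or test, 0.024 with total counts, 0.034 with no filter and 0.025 with only the compared libraries. With total counts the ATAC window gave 0.073 (LMNA) and 0.094 (LMNB2) for RN7SK and 0.16 (LMNB1) and 0.065 (LMNB2) for RPPH1, and without lncRNA intervals 0.018 for RN7SK with LMNB2. Window to flank differences with 50000 bp flanks were -0.055 for RN7SK with LMNB2 and -0.0099, -0.074 and -0.059 for RPPH1 with LMNA, LMNB1 and LMNB2.

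Leaving out 1 library at a time, small RNA counts ran from 0 to 304 (LMNA), 9 to 36 (LMNB1), 51 to 2101 (LMNB2) and 117 to 2222 (joint), all highest without GFP replicate 3, and ATAC counts from 0 to 222 (without GFP replicate 3), 5 to 12 and 4 to 13 (both without LMNB2 replicate 3) and 8 to 1118 (without LMNB1 replicate 3). Small RNA estimates that changed sign ran from -0.15 to 0.28 (RN7SK, LMNA), -0.24 to 0.31 (RMRP, LMNB1), -0.062 to 0.37 (RN7SK, LMNB2) and -0.011 to 0.54 (RMRP, LMNB2). ATAC window estimates ran for RN7SK from -0.075 to 0.095 (LMNA), -0.053 to 0.12 (LMNB1) and -0.078 to 0.092 (LMNB2), for RPPH1 from -0.055 to 0.11, -0.093 to 0.077 and -0.12 to 0.053, and for RMRP from -0.013 to 0.12 (LMNB1) and -0.028 to 0.15 (LMNB2). Window to flank differences ran for RPPH1 from -0.023 to 0.14 (LMNA) and -0.023 to 0.18 (LMNB2), and for RMRP from -0.020 to 0.14 (LMNB1) and -0.026 to 0.13 (LMNB2).

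Replicate numbers were not taken as pairs, since deviations of same-numbered libraries did not all correlate (-0.04 to 0.23 in small RNA, -0.08 to 0.19 in ATAC, against -0.21 to 0.07 and -0.15 to 0.09 between numbers). In each assay 7 of 12 libraries went best with their own number, a hint from the data only. With the replicate block no call on RN7SK, RPPH1 or RMRP changed, and with LMNB2 4 U3 and 11 NEAT1 intervals were called. Reads carry no stated molecule identifiers, and 3 libraries per group limit what each interval could show.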
